A study of Mus musculus with 12 samples.

Results

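RNA of the prefrontal cortex was compared between cocaine-treated and saline-treated C57BL/6 mice 2 h after the last injection, over all expressed genes, with the genes grouped by function beyond the MAPK, JAK-STAT, WNT and circadian groups. The mice were adult males of 10 weeks that received cocaine (20 mg/kg per day, intraperitoneally) or saline for 14 days. Tissue of 5 mice was pooled for a library and 2 libraries were made per group, so that the comparison rests on 4 of the 12 libraries of the series and on 20 mice. The other libraries came from mice killed 24 h or 7 d after the last dose of the same schedules. The deposited table lists 41319 loci at 2 h, of which 16012 carried the status OK, 14970 of these had a gene name, and 13367 had a mean FPKM (fragments of a gene per kilobase of its length, scaled to the mapped total of the library) of at least 1. These loci held 13264 gene names, against 14087 when any of the 3 time points was counted. A fold change was available for 13149 genes, 11769 of them protein-coding. The other 115 were listed at 0 in 1 group, 64 in saline and 51 in cocaine, and the only protein-coding one was Crygn, a lens crystallin (listed at 0 in saline and 2.04 FPKM in cocaine).

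The table holds 1 FPKM per group, already pooled over its 2 libraries. It gives no spread between replicates and no read counts, the columns of the authors' own comparison were not used, and every statement here is about the size of a difference between 2 pooled values. Genes were counted as higher where the FPKM with cocaine was at least 25% above that with saline, and as lower where it was at least 20% below, which is the same step of 0.32 on the log2 scale in either direction. Log2 fold changes are cocaine over saline. As a further guide, each cocaine value was set beside the saline values at 2 h, 24 h and 7 d, although the 3 tables were normalized separately. In pooled tissue, fewer cells of a type and less RNA per cell cannot be told apart.

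Cocaine raises extracellular dopamine, noradrenaline and serotonin by blocking their reuptake. In cortical neurons, receptor and calcium signaling is followed within minutes by transcription of immediate-early genes, which need no new protein synthesis and code for transcription factors (Fos, Jun, Egr and Nr4a families) and for effectors that act at synapses or in signaling (Arc, Homer1, Sik1). Their transcripts are short-lived, and a second set of genes follows them. Stress hormones act in the same tissue through the glucocorticoid receptor, and the load of newly made proteins in the endoplasmic reticulum is met by chaperones such as Hspa5.

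At 2 h, 946 genes (7.19% of all) were higher with cocaine by this threshold and 685 (5.21%) lower, and the median log2 fold change was 0.02. Among protein-coding genes 765 (6.5%) were higher and 445 (3.78%) lower, with a median of 0.03. Both shares depended on the level of the gene. Between 1 and 2 FPKM 14.4% of the protein-coding genes were higher and 13.5% lower, whereas among the 2330 genes of at least 30 FPKM 37 were higher and 10 lower. The lower genes had a median of 2.57 FPKM and the higher genes 3.89 FPKM, against 9.42 FPKM for all protein-coding genes. Of the 15 largest increases over all classes 4 were protein-coding, and of the 15 largest decreases 2 were. Loci shorter than 300 bases made up 6 and 5 of them.

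**Figure D1:**
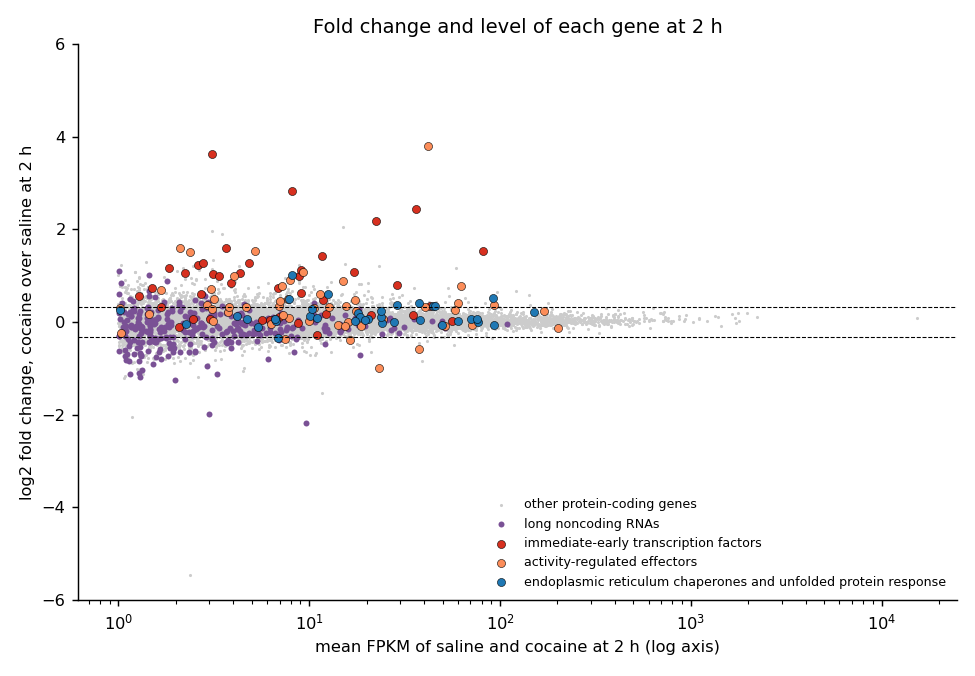
Log2 fold change of cocaine over saline at 2 h (vertical axis) against the mean FPKM of both groups (horizontal log axis), 1 point per gene, with dashed lines at the threshold. Immediate-early transcription factors (red) and activity-regulated effectors (orange) reach 3.62 and 3.80, the endoplasmic reticulum genes (blue) stay within -0.35 and 1.01, and the scatter of the other genes narrows as the FPKM grows.

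In the separate comparisons at later times, 332 protein-coding genes (2.8%) were higher and 282 (2.38%) lower at 24 h, and 498 (4.24%) were higher and 685 (5.84%) lower at 7 d. Of the 765 genes higher at 2 h, 743 were measured at 24 h and 101 of those were again higher, 13.6% against the 2.8% of all. In the opposite direction 40 of the 743 were lower (5.38% against 2.38%). At 7 d 125 of 707 were higher (17.7% against 4.24%) and 34 lower (4.81% against 5.84%). Of the 445 genes lower at 2 h, 40 of 430 were lower at 24 h and 58 of 420 at 7 d (9.30% and 13.8%), while 23 (5.35% against 2.8%) and 13 (3.10% against 4.24%) were higher. At 24 h both directions were thus more frequent among the genes past the threshold at 2 h than among all. The 3 comparisons use different mice and share no saline library. Where all 3 saline values were measured, 631 genes (5.49%) were higher and also above every saline value, which is 84.5% of the 747 higher genes that could be looked at this way, and 372 (3.24%) were lower and below every saline value (85.9% of 433).

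The largest group of increases was that of the immediate-early transcription factors. In it 28 of 40 members were higher and 0 lower, against 6.5% and 3.78% of all protein-coding genes. The median log2 fold change of the list was 0.77. Egr2, a zinc-finger factor of the Egr family, stood at 0.47 FPKM with saline and 5.72 with cocaine at 2 h (log2 3.62), 0.72 and 2.30 at 24 h, then 0.21 and 0.75 at 7 d. Fos, a subunit of the AP-1 dimer, was at 2.02 and 14.3 FPKM at 2 h (log2 2.82), 3.95 and 9.24 at 24 h, then 1.59 and 4.66 at 7 d. Cocaine was the higher of the pair at each time for both genes, and by the largest margin at 2 h.

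Junb, the dimer partner of Fos, was at 11.4 FPKM with saline and 61.6 with cocaine at 2 h (log2 2.44), and the 3 saline values lay between 11.4 and 20.2. Nr4a1, an orphan nuclear receptor, was at 8.05 and 36.7 FPKM (log2 2.19), and its relative Nr4a3 at 1.82 and 5.49 (log2 1.59). Egr1 was the most abundant of the leading members, with 41.9 FPKM with saline and 121 with cocaine (log2 1.54). All these cocaine values were above the saline values of all 3 times. Over the whole list, 26 of the 28 higher members were above every saline value, against 84.5% of the higher protein-coding genes looked at this way. Egr3 was one of the other 2 members, at 37.6 FPKM with saline and 47.9 with cocaine at 2 h, but at 51.9 in saline at 24 h. Fosb, whose truncated product accumulates under repeated cocaine, was at 1.57 and 3.67 FPKM at 2 h (log2 1.23) but at 1.99 and 1.86 at 24 h (log2 -0.10) and 1.5 and 1.61 at 7 d (log2 0.11). At 24 h 12 of the 40 members were higher and 4 lower, and at 7 d 14 were higher and 0 lower, with medians of 0.15 at both times. The shares of all protein-coding genes were 2.8% higher and 2.38% lower at 24 h, and 4.24% and 5.84% at 7 d.

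Of 53 activity-regulated effectors, 25 were higher and 4 lower (median 0.31), against 6.5% and 3.78% of all protein-coding genes. Arc, which promotes the internalization of AMPA receptors, had the largest increase of any protein-coding gene, 13.9-fold (log2 3.80): 5.59 FPKM with saline and 77.8 with cocaine at 2 h, 23.2 and 54.1 at 24 h, then 6.47 and 21.6 at 7 d. The saline value at 24 h was thus above those at the other times. Next were 3 signaling genes: Sik1, a salt-inducible kinase (1.05 to 3.18 FPKM, log2 1.60), Trib1, a pseudokinase (2.68 to 7.72 FPKM, log2 1.52), and Rasl11a, a Ras-like small GTPase (1.23 to 3.50 FPKM, log2 1.51). Arl4d, an ARF-like GTPase, was at 5.95 and 12.6 FPKM (log2 1.08), and Plk3, a polo-like kinase, at 2.71 and 5.38 (log2 0.99). Homer1, a postsynaptic scaffold with an activity-induced short form, reached only 35.7 and 44.9 FPKM (log2 0.33), and the locus value does not separate its isoforms.

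The effectors also held decreases among abundant genes. Rasl11b, a relative of Rasl11a, was at 44.9 FPKM with saline and 30.02 with cocaine at 2 h (log2 -0.58), whereas the 4 values at 24 h and 7 d lay between 40.4 and 44.6. Rasl11a and Rasl11b thus differed in direction. Sgk1, a glucocorticoid-induced kinase, was at 18.6 and 14.2 FPKM (log2 -0.39), below saline values of 16.2 to 18.6. Gadd45g was at 8.38 and 6.53 FPKM (log2 -0.36), while Gadd45b, of the same family of stress sensors that take part in DNA demethylation, was at 5.29 and 9.04 (log2 0.77). The locus of Rasgef1b, an exchange factor for Rap GTPases, was at 31.0 and 15.6 FPKM (log2 -0.99), but it is joined in the table with the noncoding gene A930011G23Rik, so the share of each could not be told.

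Promoters of the leading members are shown because these genes are textbook targets of CREB, which binds the cAMP response element TGACGTCA or its core TGACG. The sequences are from RefSeq on GRCm38.p6, cover up to 30 bases on either side of the match nearest to the transcription start, are written 5′ to 3′ on the strand of the gene, and have each TGACG (or CGTCA, its reverse complement) in capitals.

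Egr2, chr10:67537784-67537848, plus strand: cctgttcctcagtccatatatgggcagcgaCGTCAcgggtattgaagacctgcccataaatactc
Fos, chr12:85473794-85473858, plus strand: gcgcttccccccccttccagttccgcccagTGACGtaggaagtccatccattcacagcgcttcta
Junb, chr8:84978820-84978884, minus strand: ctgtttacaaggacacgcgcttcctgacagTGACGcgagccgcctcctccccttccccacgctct
Nr4a1, chr15:101266776-101266840, plus strand: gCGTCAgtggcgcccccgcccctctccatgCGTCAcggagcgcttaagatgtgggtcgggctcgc

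The nearest base of the match was 51 bases before the start in Egr2, 62 in Fos, 102 in Junb and 36 in Nr4a1. The core was found in the promoters (250 bases before to 50 after the start, either strand) of 23.1% of the 27025 genes in the RefSeq table and of 35.7% of the 9545 genes measured at 2 h with an entry. Of the 28 higher immediate-early factors 22 had an entry and 15 of these held it, as did 5 of the 9 members with an entry that were not higher. Too few members had an entry for a share of the whole list to be given. The full element TGACGTCA, which contains the core, was found in 2.03% of all promoters and 3.58% of those of measured genes. It was found in 1 of the 22 higher immediate-early factors with an entry (Btg2) and 0 of the 9 others, and in 3 of 16 higher effectors and 4 of 25 effectors that were not higher (Plk2, Pcsk1, Scg2 and Ppp1r15a). Among glucocorticoid-responsive genes it was found in 2 of 17 higher members with an entry (Errfi1 and Dusp1) and 0 of the 14 others. The full element is shown for Dusp1, of that list, and for Arl4d, of the effectors, with the 8 bases in capitals.

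Dusp1, chr17:26508578-26508645, minus strand: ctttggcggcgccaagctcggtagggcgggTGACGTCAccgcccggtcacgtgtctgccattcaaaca
Arl4d, chr11:101665485-101665540, plus strand: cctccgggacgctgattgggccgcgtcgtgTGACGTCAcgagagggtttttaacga

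**Figure D2:**
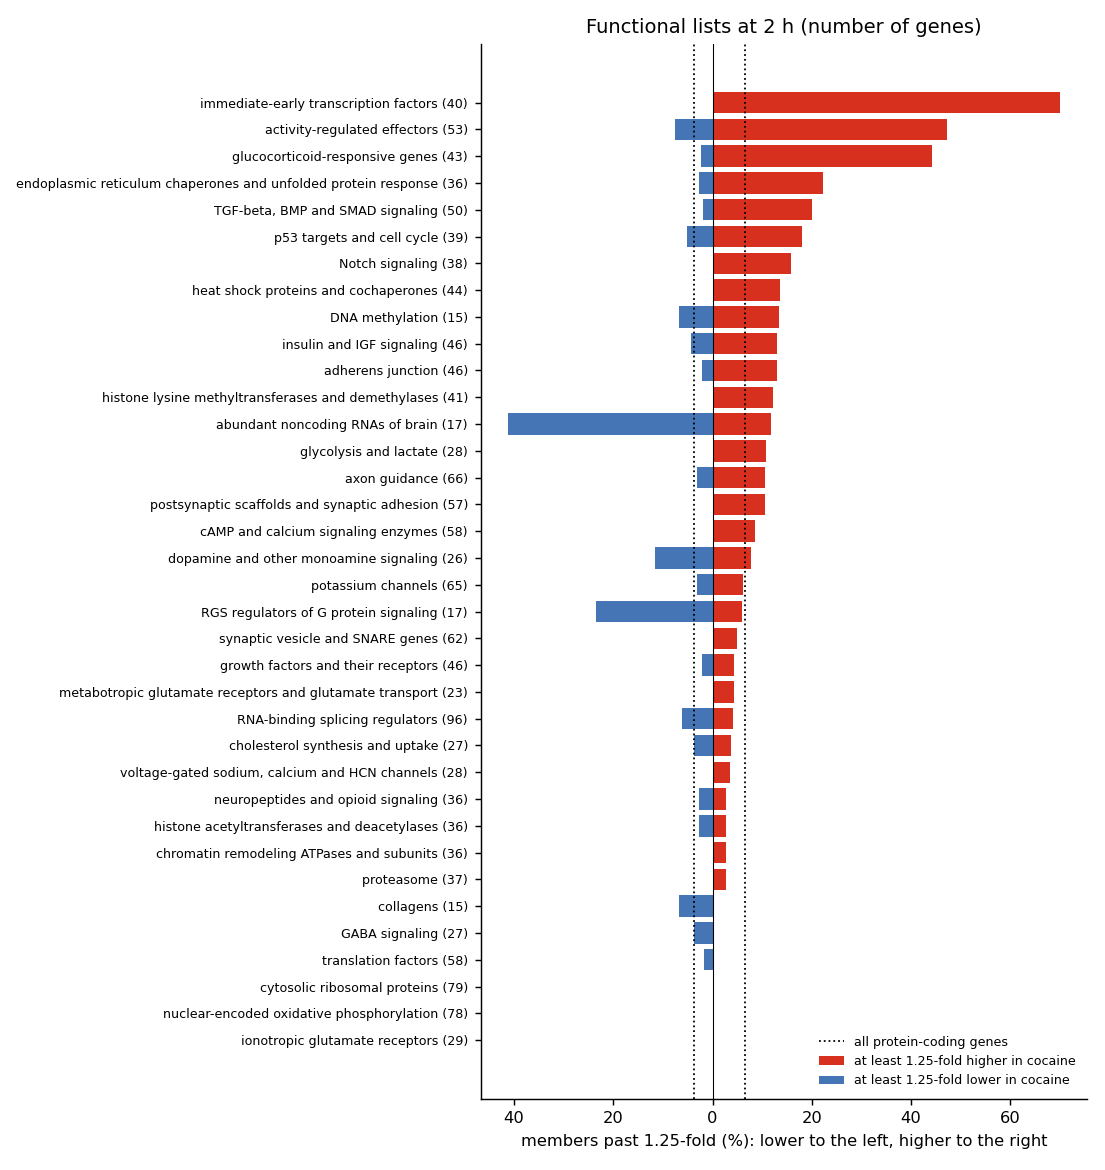
Share of the members of functional lists that was higher (red, to the right) or lower (blue, to the left) in cocaine at 2 h, with the number of genes in parentheses and dotted lines at the shares of all protein-coding genes (6.5% and 3.78%). Immediate-early factors (28 of 40), effectors (25 of 53) and glucocorticoid-responsive genes (19 of 43) reach farthest to the right, and the noncoding RNAs (7 of 17) and RGS genes (4 of 17) farthest to the left.

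Genes known to respond to glucocorticoids were the third group by share. Of 43 members 19 were higher and 1 lower, against 6.5% and 3.78% of all protein-coding genes, with a list median of 0.30. All 19 were above every saline value, against 84.5% of the higher protein-coding genes looked at this way. Dusp1, the phosphatase that inactivates MAP kinases, was at 5.85 FPKM with saline and 24.2 with cocaine at 2 h (log2 2.05), 11.9 and 16.7 at 24 h, then 6.14 and 10.3 at 7 d. Dusp1 and Per1 (9.17 and 21.7 FPKM, log2 1.24) are also induced by neuronal activity. Fkbp5, the cochaperone that limits the glucocorticoid receptor, was at 6.02 and 9.40 FPKM at 2 h (log2 0.64), 5.60 and 6.02 at 24 h, then 4.80 and 5.40 at 7 d, so the cocaine value at 2 h was the highest of the 6. Tsc22d3, the glucocorticoid-induced leucine zipper, was at 21.9 and 30.8 FPKM (log2 0.49), and Bcl6, a transcriptional repressor, at 3.59 and 5.96 (log2 0.73). The 1 lower member was Sgk1. At 24 h 3 of 43 members were higher and 3 lower, against 2.8% and 2.38% of all protein-coding genes, with a list median of 0.02. At 7 d 7 of 42 were higher and 0 lower, against 4.24% and 5.84% of all protein-coding genes, with a list median of 0.12. A palindromic glucocorticoid response element (ACA and TGT separated by 3 bases, with G and C a base farther out on either side) occurred in 0.54% of all promoters and in 2 of the 17 higher members with an entry (Map3k6 and Fam107a), as well as in 2 of the 14 with an entry that were not higher, Sgk1 and Mt1.

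Genes of the endoplasmic reticulum formed a group of mostly small increases at 2 h. Of 36 chaperones and genes of the unfolded protein response 8 were higher and 1 lower, with a median of 0.08. The shares of all protein-coding genes were 6.5% and 3.78%. All 8 were above every saline value, as were 84.5% of the higher protein-coding genes looked at this way. Sdf2l1, a component of the chaperone complex of the endoplasmic reticulum, was at 5.37 FPKM with saline and 10.8 with cocaine at 2 h (log2 1.01), 7.04 and 7.28 at 24 h, then 7.25 and 7.32 at 7 d. Its saline value at 2 h was thus also below the other saline values. Hspa5, the main Hsp70 chaperone of the compartment (chromosome 2, 34771970 to 34776531 of GRCm38), was at 75.9 and 108 FPKM at 2 h (log2 0.51), 84.3 and 81.3 at 24 h, then 84.6 and 78.3 at 7 d. For Hspa5 the cocaine value at 2 h was the single high value among 6.

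Pdia4, a protein disulfide isomerase, was at 9.89 and 15.1 FPKM (log2 0.61), and Creld2, a stress-induced disulfide isomerase-like protein, at 6.56 and 9.20 (log2 0.49). Xbp1, the transcription factor activated by Ire1 splicing, was at 32.6 and 43.1 FPKM (log2 0.40), and Herpud1, of the degradation machinery, at 25.3 and 32.7 (log2 0.37). Pdia6 was at 39.0 and 49.96 FPKM (log2 0.36). The 1 lower member was Nucb2, a calcium-binding protein and the precursor of nesfatin, at 7.66 and 6.02 FPKM (log2 -0.35). In the later comparisons the list had 0 higher and 0 lower members of 36 at 24 h, and 1 higher and 2 lower of 35 at 7 d. The shares of all protein-coding genes were also small, 2.8% higher and 2.38% lower at 24 h, and 4.24% and 5.84% at 7 d.

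The endoplasmic reticulum stress element, CCAAT and CCACG separated by 9 bases, was found in 0.14% of all promoters. It was found in 3 of the 7 higher members with an entry and in 4 of the 22 with an entry that were not higher, among them Hsp90b1 and Calr. The 3 matches are shown with the whole element in capitals; in Creld2 it lies on the other strand and so reads as its reverse complement.

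Hspa5, chr2:34771995-34772073, plus strand: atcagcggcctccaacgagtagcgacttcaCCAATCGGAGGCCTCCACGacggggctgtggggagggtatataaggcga
Creld2, chr15:88819490-88819568, plus strand: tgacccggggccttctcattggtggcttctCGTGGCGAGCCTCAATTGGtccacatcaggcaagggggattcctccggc
Pdia6, chr12:17266461-17266539, plus strand: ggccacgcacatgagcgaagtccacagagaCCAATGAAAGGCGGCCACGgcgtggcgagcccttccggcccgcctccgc

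Of 44 heat shock proteins and cochaperones, 6 were higher and 0 lower (median 0.02), against 6.5% and 3.78% of all protein-coding genes. Hspb1, a small heat shock protein, was at 5.09 FPKM with saline and 9.79 with cocaine at 2 h (log2 0.94), and the other 4 values lay between 5.15 and 7.42. Dnajb5, an Hsp40 cochaperone, was the most abundant of them, at 46.2 and 79.3 FPKM (log2 0.78) at 2 h, 37.3 and 48.4 at 24 h (log2 0.38), then 36.8 and 37.9 at 7 d (log2 0.04). Dnajb4 (20.7 and 27.6 FPKM), Hspb8 (8.32 and 10.9) and Bag3 (1.96 and 2.54) had log2 fold changes of 0.42, 0.40 and 0.37. The sixth was the joint locus of Hspa1a and Hspa1b, near-identical genes, with 6.30 and 8.38 FPKM at 2 h but 8.83 in saline at 24 h.

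Developmental signaling lists held some higher members, many of them below 5 FPKM, where 14.4% (1 to 2 FPKM) and 11.05% (2 to 5 FPKM) of all protein-coding genes were higher. In TGF-beta, BMP and SMAD signaling 10 of 50 members were higher and 1 lower (median 0.07). The ligand side held Inhbb, an activin subunit (1.76 and 3.34 FPKM, log2 0.92), and Tgfb3 (3.15 and 4.47 FPKM, log2 0.51). The antagonist side held Fst, which traps activin (0.98 and 1.71 FPKM, log2 0.80), and the inhibitory SMADs Smad7 (3.11 and 5.00 FPKM, log2 0.68) and Smad6 (0.93 and 1.31 FPKM, log2 0.50). Of the targets, Id1 was at 17.5 and 25.1 FPKM (log2 0.52), against 15.4 to 17.4 in the other 4 groups. Bmp3, an antagonist-like BMP, was the lower one, at 4.17 and 3.11 FPKM (log2 -0.43).

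In Notch signaling 6 of 38 members were higher and 0 lower (median 0.08), against 6.5% and 3.78% of all protein-coding genes. Each of the 6 was above every saline value, as were 84.5% of the higher protein-coding genes looked at this way. The 6 comprised the ligand Dll1 (0.99 and 1.78 FPKM, log2 0.85), the receptors Notch2 (1.23 and 1.78, log2 0.53) and Notch1 (2.61 and 3.56, log2 0.45), the coactivator Maml3 (0.885 and 1.18, log2 0.41), and the target repressors Hes1 (6.42 and 9.11, log2 0.51) and Hes5 (10.6 and 14.9, log2 0.49). Notch2 was barely above its saline value at 7 d (1.776 against 1.769 FPKM). The paper's RT-PCR at 2 h marked neither receptor gene as different from saline, and its value for Notch2 lay below saline. The paper's own RNA-seq comparison at 2 h marked Notch2 as increased, but not Notch1. Hes5 had cocaine and saline values of 15.9 and 14.3 FPKM at 24 h, so its saline level at 2 h was the low one of the 6. Of growth factors and their receptors 2 of 46 were higher, Pdgfb (7.76 and 13.3 FPKM, log2 0.78) and Csf1 (3.999 and 5.14, log2 0.36), and 1 lower, the lymphatic growth factor Vegfc (2.83 and 2.08, log2 -0.44), shares below those of all protein-coding genes.

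In insulin and IGF signaling 6 of 46 members were higher and 2 lower (median 0.11), against 6.5% and 3.78% of all protein-coding genes. Irs2, a docking protein of the insulin and IGF receptors, was at 5.30 FPKM with saline and 12.4 with cocaine at 2 h (2.34-fold, log2 1.23), 4.59 and 6.29 at 24 h (log2 0.46), then 3.63 and 4.67 at 7 d (log2 0.36). Foxo6, a forkhead factor of neurons, was at 2.89 and 4.87 FPKM (log2 0.75), and Ptpn1, the phosphatase of the insulin receptor, at 8.03 and 11.9 (log2 0.57). Among the translational repressors of this pathway Eif4ebp2 was at 8.12 and 10.7 FPKM (log2 0.39) and Eif4ebp1 at 5.53 and 4.06 (log2 -0.45), and the S6 kinase gene Rps6kb2 was at 3.95 and 2.80 (log2 -0.50). Of 39 p53 targets and cell cycle genes 7 were higher and 2 lower (median 0.05), led by Btg2, an antiproliferative gene (2.81 and 5.87 FPKM, log2 1.07), and the cyclin gene Ccnd2 (9.25 and 16.7 FPKM, log2 0.86), with the BH3-only gene Pmaip1 at 1.76 and 1.19 (log2 -0.56).

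**Figure D3:**
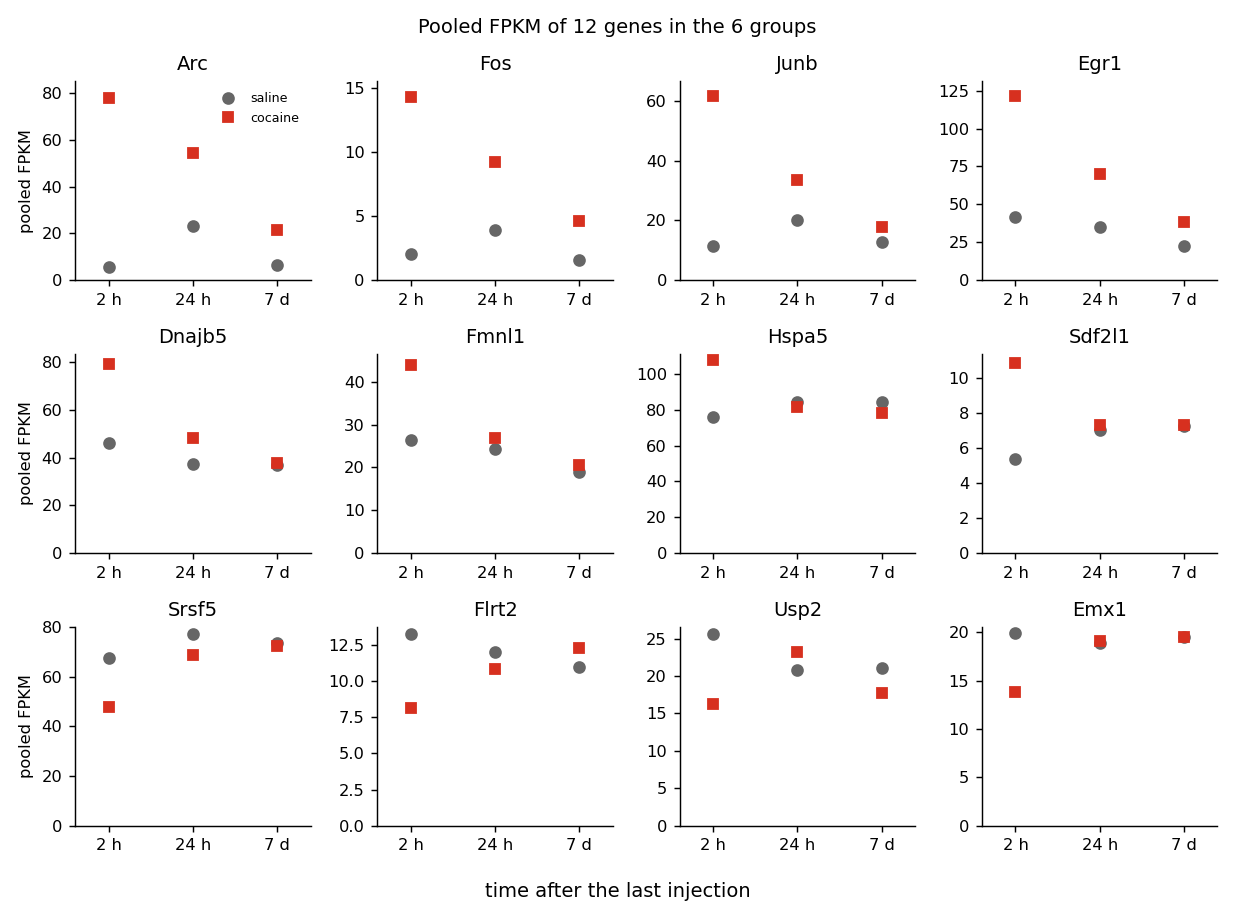
Pooled FPKM of 12 genes in saline (grey circles) and cocaine (red squares) at 2 h, 24 h and 7 d, 1 value per group and so no error bars. Arc, Fos, Junb and Egr1 are higher in cocaine at each time, Dnajb5, Fmnl1, Hspa5 and Sdf2l1 have their highest value in cocaine at 2 h, and Srsf5, Flrt2, Usp2 and Emx1 have their lowest value there.

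Genes of cell contacts and of the cytoskeleton passed the threshold in a few members each. Of all protein-coding genes 6.5% were higher and 3.78% lower. Of 46 adherens junction genes 6 were higher and 1 lower, led by the actin linker Vcl (2.09 and 3.13 FPKM, log2 0.58), Ptpn1, and the polarity gene Pard3 (2.07 and 2.89 FPKM, log2 0.48). The nectins went both ways, with Pvrl1 at 5.57 and 7.68 FPKM (log2 0.46) and Pvrl3 at 13.3 and 9.70 (log2 -0.46). Among 66 axon guidance genes 7 were higher and 2 lower, led by the Eph receptor gene Ephb3 (6.26 and 10.0 FPKM, log2 0.68) and the semaphorin gene Sema3g (1.253 and 1.96, log2 0.65). Fmnl1, a formin that nucleates actin and was not in these lists, was at 26.4 and 44.0 FPKM at 2 h (log2 0.74), with the other 4 values between 18.9 and 26.9.

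At the synapse a few scaffold genes passed the threshold and no ionotropic glutamate receptor gene did. Of all protein-coding genes 6.5% were higher and 3.78% lower. The log2 fold changes of the 29 ionotropic glutamate receptor genes lay between -0.20 and 0.32, the highest just short of the threshold. Of 57 postsynaptic scaffold and adhesion genes 6 were higher and 0 lower (median 0.12), led by Synpo, an actin-binding protein of the spine apparatus, at 54.1 and 77.1 FPKM (log2 0.51) against saline values of 53.6 and 40.6 at the later times. Of 62 synaptic vesicle and SNARE genes 3 were higher and 0 lower, shares below those of all protein-coding genes. Of 23 metabotropic glutamate receptor and transport genes Homer1 alone was higher. In GABA signaling 1 of 27 genes was lower, the receptor subunit Gabrg3, at 4.11 and 2.94 FPKM (log2 -0.48).

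Of 65 potassium channel genes 4 were higher and 2 lower, shares slightly below the 6.5% and 3.78% of all protein-coding genes. The voltage-gated subunit gene Kcng1 was at 5.95 FPKM with saline and 9.09 with cocaine (log2 0.61), and Kcnj12, an inward rectifier, at 6.07 and 8.53 (log2 0.49). Kcnj2, another inward rectifier of the same family, was at 5.48 and 3.37 FPKM (log2 -0.70), below saline values of 4.08 and 4.67 at 24 h and 7 d, and the A-type channel gene Kcna4 was at 3.46 and 2.50 (log2 -0.47). Of the 28 voltage-gated sodium, calcium and HCN channel genes 1 was higher, Hcn4 (0.95 and 1.22 FPKM, log2 0.37).

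Genes listed for monoamine signaling, an adenosine receptor gene among them, were mostly within the threshold. Of 26 members 2 were higher, the alpha-2 adrenergic receptor gene Adra2c (5.56 and 7.44 FPKM, log2 0.42) and the adenosine receptor gene Adora2a (1.02 and 1.35, log2 0.42). The 3 lower ones were the serotonin receptor genes Htr6 (3.07 and 2.21 FPKM, log2 -0.47) and Htr1a (3.93 and 3.07, log2 -0.35) and the beta-3 adrenergic receptor gene Adrb3 (1.35 and 0.81, log2 -0.74). Of all protein-coding genes 6.5% were higher and 3.78% lower, but 14.4% and 13.5% between 1 and 2 FPKM, where Adora2a and Adrb3 lay. Of 36 neuropeptide and opioid genes 1 was higher (Vipr1, log2 0.33) and 1 lower, Npy1r, the Y1 receptor of neuropeptide Y (10.2 and 8.04 FPKM, log2 -0.35). The 58 cAMP and calcium signaling enzymes held 5 higher and 0 lower members, a higher share near the 6.5% of all protein-coding genes. Camk1g, a kinase gene, led them (13.6 and 20.8 FPKM, log2 0.61).

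The RGS genes, whose products speed up the GTPase of G protein alpha subunits, were the list of proteins with the highest share of decreases, 4 of 17 against 3.78% of all protein-coding genes, with 1 higher and a median of -0.02. Rgs3 was at 9.02 FPKM with saline and 6.17 with cocaine at 2 h (log2 -0.55), and also at 8.79 and 6.77 at 24 h (log2 -0.38), but at 8.81 and 8.87 at 7 d. Rgs9, typical of striatal neurons, was at 1.87 and 1.37 FPKM (log2 -0.45), Rgs19 at 11.1 and 8.54 (log2 -0.38), and Rgs11 at 2.66 and 2.08 (log2 -0.36). Rgs2, an immediate-early member of the family, was at 13.7 and 17.4 FPKM (log2 0.35). All 4 lower values were below every saline value, as were 85.9% of the lower protein-coding genes looked at this way.

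Of 41 histone lysine methyltransferases and demethylases 5 were higher and 0 lower (median 0.12), against 6.5% and 3.78% of all protein-coding genes. The largest were those of Setd1b, an H3K4 methyltransferase (2.45 and 3.56 FPKM, log2 0.54), and of the demethylase genes Kdm7a (3.59 and 4.96, log2 0.47) and Kdm2a (7.18 and 9.55, log2 0.41). Of 36 acetyltransferases and deacetylases Hdac4 was higher (4.73 and 6.01 FPKM, log2 0.35) and Hdac10 lower (2.24 and 1.69, log2 -0.41). Of 36 subunits of chromatin remodelers Dpf1, of the neuronal BAF complex, was higher (15.4 and 23.1 FPKM, log2 0.58). The 3 genes past the threshold among 15 of DNA methylation and demethylation were Gadd45a, Gadd45b and Gadd45g.

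In metabolism, 3 of 28 glycolysis and lactate genes were higher and 0 lower, against 6.5% and 3.78% of all protein-coding genes. Slc2a1, the glucose transporter of the blood-brain barrier, was at 36.1 and 49.1 FPKM (log2 0.44), Pfkfb3, which makes the activator of phosphofructokinase, at 4.90 and 7.06 (log2 0.53), and Hk2, a hexokinase, at 0.79 and 1.67 (log2 1.08). Pdp1, the phosphatase that activates pyruvate dehydrogenase, was in none of the lists and was at 43.4 and 64.4 FPKM (log2 0.57), with 39.0 to 48.6 in the other 4 groups. None of 78 nuclear-encoded oxidative phosphorylation genes and none of 79 cytosolic ribosomal protein genes was past the threshold, and the log2 fold changes lay between -0.17 and 0.18 and between -0.16 and 0.25. In the 7 d comparison 25 of 76 and 18 of 78 of these genes were lower, against 5.84% of all protein-coding genes at that time. Of 37 proteasome genes 1 was higher at 2 h and 0 lower, and of 58 translation factors 0 were higher and 1 lower. Of 27 cholesterol genes Ebp, an isomerase of the synthesis, was higher (9.65 and 13.5 FPKM, log2 0.48). Of 15 collagen genes 1 was lower, Col16a1 (log2 -0.32).

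**Figure D4:**
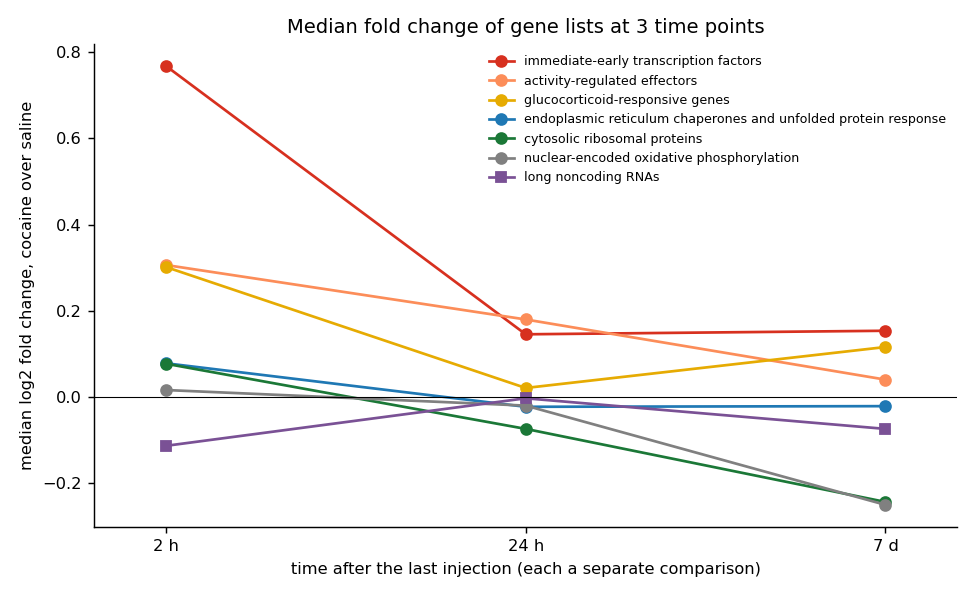
Median log2 fold change (cocaine over saline) of 6 gene lists and of the long noncoding RNAs in the separate comparisons at 2 h, 24 h and 7 d. The immediate-early factors go from 0.77 to 0.15 and 0.15, the glucocorticoid-responsive genes from 0.30 to 0.02 and 0.12, and the oxidative phosphorylation genes from 0.02 to -0.02 and -0.25.

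Among abundant protein-coding genes the decreases at 2 h were fewer and smaller than the increases. In those of at least 10 FPKM the largest was that of Pyurf, which shares its transcript with Pigy of the GPI anchor pathway, at 17.3 FPKM with saline and 6.01 with cocaine at 2 h (log2 -1.53). Its other values were 8.58, 9.96, 13.0 and 15.2 FPKM, so that both 2 h values lay at the ends of the range. Cisd3, an iron-sulfur protein of mitochondria, was at 49.9 and 27.9 FPKM at 2 h (log2 -0.84), but at 25.7 and 27.7 in saline at 24 h and 7 d, so the saline value at 2 h was the one that stood apart.

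For several of the others, 6 of which follow, the cocaine value at 2 h was the lowest of the groups. Hs3st1, a sulfotransferase of heparan sulfate, was at 12.6 FPKM with saline and 7.71 with cocaine (log2 -0.70), with 10.8 to 12.1 in the other 4 groups. Flrt2, an adhesion protein that binds Unc5 and latrophilin receptors (chromosome 12, 95691944 to 95785429 of GRCm38), was at 13.2 and 8.14 FPKM (log2 -0.70), with 10.8 to 12.3 elsewhere. The uncharacterized gene 1190002N15Rik was at 13.3 and 8.40 FPKM (log2 -0.66), with 12.1 to 13.5 elsewhere. Usp2, a deubiquitinating enzyme (chromosome 9, 44066327 to 44121947), was at 25.7 and 16.3 FPKM (log2 -0.65), with 17.8 to 23.3 elsewhere. Ddit4l, an inhibitor of mTOR signaling, was at 15.8 and 10.1 FPKM (log2 -0.65), with 14.9 to 17.5 elsewhere. Emx1, the homeobox factor of cortical excitatory neurons, was at 19.95 and 13.8 FPKM (log2 -0.53), with 18.9 to 19.5 elsewhere. For Hs3st1, Flrt2, Usp2 and Emx1 the saline value at 2 h was also the highest of the groups.

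The abundant decreases also included genes that act on RNA. Of 96 splicing regulators and other RNA-binding proteins 6 were lower, against 3.78% of all protein-coding genes, and 4 higher, with a median of -0.01. The 6 were below every saline value, as were 85.9% of the lower protein-coding genes looked at this way. Srsf5, an SR protein (chromosome 12, 80945499 to 80950507 of GRCm38), was at 67.3 FPKM with saline and 47.7 with cocaine at 2 h (log2 -0.50), 77.1 and 68.7 at 24 h, then 73.6 and 72.4 at 7 d. Hnrnpdl, of the hnRNP family, was at 56.7 and 45.3 FPKM (log2 -0.32), with 49.8 to 53.8 in the other 4 groups.

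Pnisr, an SR-related protein, was at 11.7 and 7.55 FPKM (log2 -0.64), and Rbm11 and Rbm28 at log2 -0.50 and -0.41. Cirbp, the cold-inducible RNA-binding protein, was outside the list and was at 54.3 and 43.3 FPKM (log2 -0.33), with 46.1 to 47.8 elsewhere. On the higher side were Rbm24 (4.37 and 6.47 FPKM, log2 0.56), Srsf10 (10.4 and 14.4, log2 0.47), Rbm15 (0.84 and 1.36, log2 0.70) and the joint locus of Manf and Rbm15b (40.4 and 51.2, log2 0.34). That locus also counts among the endoplasmic reticulum genes, through the stress-induced factor Manf, and its 2 genes could not be told apart.

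Long noncoding RNAs had a larger share of lower members than protein-coding genes, a difference for which these pooled values allow no test. Of 328 long noncoding RNAs 76 (23.2%) were lower and 26 (7.93%) higher, with a median of -0.11. They were less abundant than protein-coding genes, but the share was larger in each range of level as well: 32.6% against 13.5% were lower between 1 and 2 FPKM, 20% against 6.52% between 2 and 5 FPKM, and 10.1% against 1.43% from 5 FPKM on. Of the 76, 56 were below every saline value, against 85.9% of the lower protein-coding genes looked at this way (372 of 433). At 24 h 35 of 326 were lower and 32 higher, with a median of 0.00, and at 7 d 65 of 318 were lower and 19 higher, with a median of -0.07. The protein-coding shares were 2.38% lower and 2.8% higher at 24 h, and 5.84% lower and 4.24% higher at 7 d.

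Of 17 abundant noncoding RNAs of brain, 7 were lower and 2 higher (median -0.23). Among all genes 5.21% were lower and 7.19% higher. The shares were 23.2% and 7.93% for long noncoding RNAs, and 25.4% and 37.7% for loci classed as small RNA, which include members of this list. Snhg11, a neuronal host gene of small nucleolar RNAs (chromosome 2, 158375638 to 158386145 of GRCm38), was at 22.8 FPKM with saline and 13.9 with cocaine at 2 h (log2 -0.72), 22.4 and 24.5 at 24 h, then 30.1 and 24.6 at 7 d. Neat1, which builds paraspeckles, was at 4.28 and 3.13 FPKM (log2 -0.45), with 5.04 to 5.73 elsewhere. The locus of Meg3, a maternally expressed imprinted RNA, was at 28.4 and 16.7 FPKM (log2 -0.77) and that of Snhg1 at 18.7 and 6.43 (log2 -1.54), but both are joined in the table with small RNAs, and the value does not separate them. With loci of 1 gene name alone 2 members of this list were lower and 1 higher, and the median was -0.10.

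The markers of cortex were present at the levels of that tissue. Among excitatory neuron markers Slc17a7, the vesicular glutamate transporter, was at 499 and 509 FPKM and Camk2a at 895 in saline, and of the 8 only Emx1 passed the threshold. None of the 8 interneuron markers did, with log2 fold changes of -0.13 to 0.05. Markers of neighboring regions were low, with the dopamine receptor genes Drd1a at 0.92 and 0.65 FPKM and Drd2 at 0.21 and 0.15, and the olfactory genes Eomes, Tbx21, Cdhr1, Th and Barhl2 all under 1 FPKM, while Doc2g shares its locus with Nudt8 (6.50 and 5.85 FPKM). Of 7 striatal markers above the minimum, several of which cortex also expresses, Adora2a was higher and Rgs9 lower. Of 7 deep layer markers Nr4a2, Ctgf and Cplx3 were higher. Nr4a2 is also an immediate-early gene, and Ctgf was also among the listed effectors and glucocorticoid-responsive genes. Within the threshold, Fezf2 (log2 -0.17), Etv1 (-0.12) and Tle4 (-0.04) were below 0. Of 6 upper layer markers 0 were past the threshold. All 8 astrocyte markers were above 0 in log2 fold change (0.04 to 0.45, median 0.20), with Gjb6, the gene of connexin 30, at 28.5 and 39.0 FPKM as the only one past the threshold. Endothelial markers had a median of 0.14 with 0 of 8 past the threshold. Of the markers of oligodendrocyte precursors, microglia, smooth muscle and pericytes, and meningeal fibroblasts 1 gene each was higher and 0 lower: Gpr17 (log2 0.50), Tmem119 (0.35), Tagln (0.33) and Ogn (0.39).

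**Figure D5:**
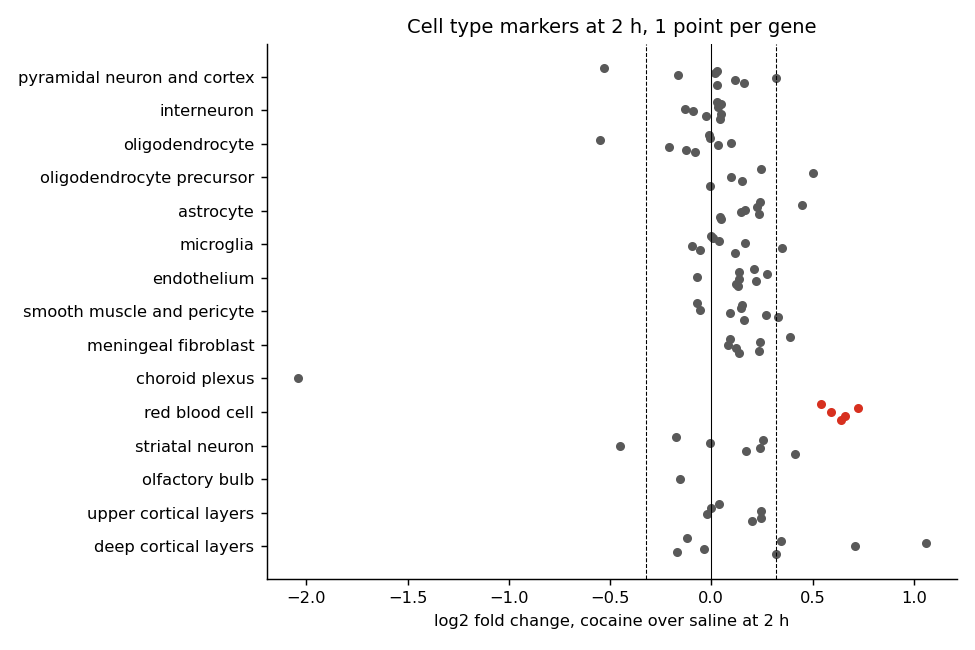
Log2 fold change of cocaine over saline at 2 h for the markers of 15 cell types or layers, 1 point per gene, with dashed lines at the threshold. The 5 red blood cell genes (red) lie between 0.54 and 0.73, while the interneuron markers lie between -0.13 and 0.05 and Ttr, the 1 measured choroid plexus marker, at -2.04.

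Red blood cell genes were higher as a whole, 5 of 5. The summed FPKM of the 5 was 323 in saline and 504 in cocaine at 2 h, 458 and 504 at 24 h, then 452 and 530 at 7 d, so the saline value at 2 h was the lowest of the 6. Hba-a1, the alpha globin gene, was at 75.7 and 118 FPKM (log2 0.64), and Hbb-bt, a beta globin gene, at 40.4 and 66.8 (log2 0.73) but at 70.2 in saline at 24 h. The part of blood in the other increases was not tested. Ttr, a marker of choroid plexus, was at 1.90 and 0.46 FPKM (log2 -2.04), and the other 7 choroid plexus markers, Kl, Folr1, Clic6, Kcne2, Aqp1, Otx2 and Sostdc1, were at 0.51 FPKM or less in both groups. Of the 8 oligodendrocyte markers measured, Opalin was lower (3.85 and 2.64 FPKM, log2 -0.55), and the median was -0.05.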

How the data were processed

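RNA-seq libraries of mouse prefrontal cortex were made with a kit that does not keep strand, so overlapping genes cannot be told apart. Per the labels' processing notes, the authors used Trimmomatic 0.32, TopHat2 2.0.12 and Cuffdiff of Cufflinks 2.2.1. Notes and methods name different builds, and the coordinates match GRCm38. The authors deposited 1 FPKM per locus and group, pooled over the libraries, so the files give neither read counts nor replicate spread. Columns with fold changes, test statistics, p-values, q-values and calls hold the authors' own comparison and were not used. The column names of the 2 h table fit the labels both ways. They were assigned from the headings of the paper's supplementary table, where 409 of 456 genes matched within 5% as saline then cocaine and 0 the other way.

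Loci with status OK, a gene name and a mean FPKM of at least 1 were kept. Loci whose counting failed or exceeded the depth limit (175, Gapdh among them) were left out. Of names on several loci (97) the longest locus was kept, and 441 loci carry joint names. The log2 ratio took no pseudocount. Gene types came from RefSeq (GRCm38.p6). The steps ran in Python 3.11.15 with pandas 2.3.3 and numpy 2.4.6 and were tested on simulated data. The 37 functional and 15 marker lists and the comparison itself were chosen with earlier results of these data known. Named were the 15 largest changes of each direction, the 10 largest from 10 FPKM on (both also among protein-coding genes alone), up to 6 called members per list and direction, the markers, and genes at 0, as far as the text describes them. Egr3, Fosb, Fmnl1, Pdp1, Tsc22d3, Pdia6, Cirbp and genes named only for a promoter match were named after their values were seen. Some items, 1 list among them, are not reported here. The alternatives are given with their effect in the closing section.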

Additional observations from a re-analysis of the deposited data

Results flagged for a closer look

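Among the named protein-coding genes, 12 were past the threshold at 2 h and past it in the opposite direction at another time. Each time has 1 pooled value per group, and the difference between the times was not tested. Ttr had a log2 fold change of -2.04 at 2 h and 4.53 at 7 d, from FPKM values under 7 in every group. Hk2 was at 1.08 and, at 7 d, -0.92, where its saline value of 2.23 FPKM was the highest of the 6. Nr4a2 was at 1.06 and, at 24 h, -0.78. Rgs2 was at 0.35 and, at 7 d, -0.33, Psmb9 of the immunoproteasome at 0.56 and, at 7 d, -0.50, and Ogn, of meningeal fibroblasts, at 0.39 and, at 24 h, -0.36. Rac2 was at -0.42 and, at 7 d, 0.47. Bach2 was at -1.01 and, at 7 d, 0.44, Rnf207 at -1.20 and, at 7 d, 0.41, and Olfr464 at -1.02 and, at 7 d, 0.46. Baiap2l2 was at -0.89, at 0.88 at 24 h and at 0.34 at 7 d. Tma7-ps, named as a pseudogene, was at 1.96 and, at 24 h, -0.62. Of the 12 genes only Rgs2 had a mean of at least 10 FPKM at 2 h.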

How the results depend on the processing

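The counts of 946 higher and 685 lower genes at 2 h are those of a threshold of 25% more or 20% less and of the minimum of 1 FPKM. A fold of 1.5 left 270 and 189, and a fold of 2 left 92 and 54. A minimum of 5 FPKM left 384 and 179, without a minimum 1091 were lower, and with a pseudocount of 1 408 were lower. Once fold changes were corrected for transcript length, in genes with a known length alone, 612 were higher. Centring (a shift of 0.02) and loci of 1 name kept both counts within 1.5 times. So did the added condition that the cocaine value lie outside the 3 saline values. No named gene changed sign under any alternative, but a fold, a pseudocount or the saline condition could not have changed a sign. With a pseudocount of 1, the log2 fold changes of 110 named genes moved past a tolerance of 0.1 and those of 119 did not. At a fold of 1.5, 51 counts of list members moved by over 1.5 times and 23 did not: of the higher members 24 immediate-early factors were left, 13 effectors, 8 glucocorticoid-responsive genes, 2 genes of the endoplasmic reticulum list, 3 of TGF-beta and 1 of Notch signaling, and 0 RGS genes were lower. A fold of 2 moved 53, a minimum of 5 FPKM 31 (13 immediate-early factors were left) and a pseudocount of 1 moved 23. With centring the metabotropic glutamate and neuropeptide lists had 0 higher members, and after the length correction the histone methylation list had 2 in place of 5. The median of the immediate-early factors was 0.65 with a pseudocount of 1 and 0.55 from 5 FPKM on. No paired analysis was possible because each group has 1 pooled value, and for the same reason no library could be left out. The files give no read counts, and the counting error of low genes was not estimated.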
